A study of Mus musculus with 24 samples.

Results

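Cpz, Ltb4r2 and Shisal2b are 3 protein-coding genes, of 54242 gene symbols measured, that were chosen because their mRNA was far higher in mouse embryonic stem cells (ESCs) treated with siRNAs against Rsl24d1 than in control siRNA cells. They were picked by symbol from the strongest protein-coding rises in depleted cells at day 0, so that the rise itself is a description here and carries no test. CGR8 mouse ESCs were profiled by bulk RNA-seq in 24 libraries, as 8 groups of 3. Cells received a non-targeting siRNA (siControl in the labels, si-CTL here) or siRNAs against Rsl24d1 (siRSL24D1, si-Rsl24d1 here). They were collected either in serum with LIF (day 0, ESC) or after 4 days of 10 nM retinoic acid without LIF (day 4, DIF). Each of these 4 conditions was run without rescue (nores, no doxycycline) and with rescue (RESCUE, doxycycline added to switch on an siRNA-resistant Rsl24d1 coding sequence). The labels name the vector empty_vector in the groups without rescue and RSL24D1_OE in the groups with rescue, while the study's methods describe a single CGR8 line that carries the inducible transgene. The rescue comparison therefore also holds the effect of doxycycline, which cannot be told apart from that of the transgene. Comparisons of days likewise hold the removal of LIF, which cannot be told apart from the effect of retinoic acid. The libraries of a group are called biological replicates in the study, the labels do not say whether they came from separate cultures, and p-values measure the spread between them.

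Cpz encodes carboxypeptidase Z, a secreted, zinc-dependent enzyme that removes basic residues from the ends of peptides and carries a cysteine-rich domain of the Frizzled type, the fold by which Frizzled receptors bind Wnt ligands. Ltb4r2 encodes the low-affinity receptor for leukotriene B4, a G protein-coupled receptor that also responds to hydroxylated fatty acids. Shisal2b encodes a small predicted membrane protein related to the Shisa family, several members of which act as adaptors of receptors in the membrane. Rsl24d1, the gene targeted by the siRNAs, encodes a factor bound to precursors of the large ribosomal subunit, where it takes part in their maturation. Leukotriene signalling is best known in leukocytes and skin.

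In the gencode vM21 annotation of GRCm38, Cpz lies on the minus strand of chromosome 5 (35502218 to 35525698) and its main transcript of 2245 bases has 11 exons. Ltb4r2 lies on the plus strand of chromosome 14 (55761428 to 55765138), with a coding transcript of 1439 bases and a retained-intron transcript of 3703 bases. Shisal2b lies on the minus strand of chromosome 13 (104845283 to 104863893), and its coding transcript of 1310 bases has 3 exons. The 3 genes thus sit on different chromosomes and share no sequence position.

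The sequence just upstream of each gene is shown because the 3 genes moved together at day 0. RefSeq start sites on GRCm38.p6 were given for 2 of the 3 members, Cpz and Shisal2b, and also for Ltb4r1, the nearest gene to Ltb4r2. The 250 bases before each start were searched on both strands for the TATA motif TATAAA, the box CCAAT, the GC box GGGCGG, the E-box CACGTG, the stress-response element TGATGNAAN, the wider E-box CANNTG and the p53 half-site. Every CACGTG is also a CANNTG. The p53 half-site is the sequence bound by a pair of p53 subunits. The capitals mark GGGCGG, which reads CCGCCC on the reverse strand, and the p53 half-site. The Cpz stretch is chr5:35525699-35525876 (minus strand), 178 bases, which leaves out the 72 bases nearest the RefSeq start that gencode places in a Cpz exon. The Shisal2b stretch is chr13:104863894-104864143 (minus strand) and the Ltb4r1 stretch is chr14:55765712-55765961 (plus strand), 250 bases each.
Cpz: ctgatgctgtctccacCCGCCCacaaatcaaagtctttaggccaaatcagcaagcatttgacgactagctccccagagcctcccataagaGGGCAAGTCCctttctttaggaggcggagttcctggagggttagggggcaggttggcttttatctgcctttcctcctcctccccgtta
Shisal2b: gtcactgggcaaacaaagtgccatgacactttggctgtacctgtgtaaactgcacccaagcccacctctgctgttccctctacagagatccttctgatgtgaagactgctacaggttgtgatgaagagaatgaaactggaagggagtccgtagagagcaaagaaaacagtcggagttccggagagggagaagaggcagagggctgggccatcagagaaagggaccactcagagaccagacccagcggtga
Ltb4r1: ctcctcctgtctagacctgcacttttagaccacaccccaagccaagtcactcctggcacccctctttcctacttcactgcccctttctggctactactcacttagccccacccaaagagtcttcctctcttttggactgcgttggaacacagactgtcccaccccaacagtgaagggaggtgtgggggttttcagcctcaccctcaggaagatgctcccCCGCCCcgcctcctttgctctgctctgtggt

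Upstream of Cpz, GGGCGG was found on the reverse strand from position -234, counted back from the RefSeq start, and a single p53 half-site match from position -160. A CANNTG match, left in lower case, began at position -196. Of 32851 promoter windows of the same length, 32.7% held GGGCGG, 7.13% held the p53 half-site and 66.2% held CANNTG. None of the 7 sequences was found upstream of Shisal2b. Upstream of Ltb4r1, GGGCGG on the reverse strand from position -31 was the single match. The other sequences were found in 12.4% (TATAAA), 33.9% (CCAAT), 6.02% (CACGTG) and 3.44% (TGATGNAAN) of the windows. GC content over the 250 bases was 57.6% for Cpz, 52.8% for Shisal2b and 56.8% for Ltb4r1, beside a median of 52.4% over all windows. These matches describe letters in a window and say nothing on binding.

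Levels are given in TPM, transcripts corrected for length and scaled so that each library sums to 1000000, and differences on the log2(TPM + 1) scale of the deposited table. Rsl24d1 itself was measured first as a check of the labels. At day 0 without rescue it was at 147.8, 139.7 and 135.9 TPM in si-CTL libraries and at 36.6, 37.9 and 32.7 TPM in si-Rsl24d1 libraries. The difference was -1.96 on the log2(TPM + 1) scale (limma, adjusted p = 3.2e-14). With rescue, the si-Rsl24d1 libraries were at 103.3, 96.1 and 121.5 TPM, and the difference from rescued si-CTL cells was -0.50 (limma, adjusted p = 2.2e-05). The table has a single Rsl24d1 row, so endogenous and transgene transcripts cannot be told apart. At day 4, Rsl24d1 differed by -0.04 without rescue (limma, adjusted p = 0.66) and by 0.15 with rescue (limma, adjusted p = 0.19). The labelled knockdown was thus measurable at day 0 and was not detected at day 4. None of 10 fixed ESC markers was under 0.1 TPM throughout a group, and no 2 libraries were identical.

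At day 0 without rescue, the groups that chose the genes, Cpz went from 0.867, 0.795 and 0.746 TPM in si-CTL libraries to 16.7, 15.1 and 16.9 TPM in si-Rsl24d1 libraries. Ltb4r2 went from 1.11, 1.01 and 0.817 TPM to 15.3, 14.1 and 14.2 TPM. Shisal2b went from 0.955, 0.613 and 1.24 TPM to 11.4, 10.3 and 13.5 TPM. Each gene was thus near 1 TPM in control ESCs and above 10 TPM in every depleted library, without overlap. The ratio of mean TPM was 20.3 for Cpz, 14.9 for Ltb4r2 and 12.6 for Shisal2b. On the log2(TPM + 1) scale, which understates the change of low genes, the differences of means were 3.26, 2.97 and 2.72. In this comparison 4.18% of 16447 tested genes passed the call used throughout, and 3.40% were called higher. The call is an adjusted p below 0.01 with a change of over 1.8-fold on the log2(TPM + 1) scale, and 1.8-fold has this meaning throughout. Groups did not overlap, higher in depleted cells, for 23.8% of tested genes. Bulk RNA does not tell more cells with the transcript from more transcript per cell.

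Among protein-coding genes, Cpz had the highest difference in this comparison, Ltb4r2 came next, and Shisal2b ranked 5. Rtkn, with a difference of 2.73, and Ms4a10, also with 2.73, sat just above Shisal2b. The next genes below it were Neurod1 at 2.59, Nkx2-9 at 2.51 and Gm29797 at 2.49. Counting all tested genes, with non-coding ones included, the 3 members ranked 5, 7 and 14. The margin between Shisal2b and its neighbours in this order was smaller than its standard error of 0.22.

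**Figure D1:**
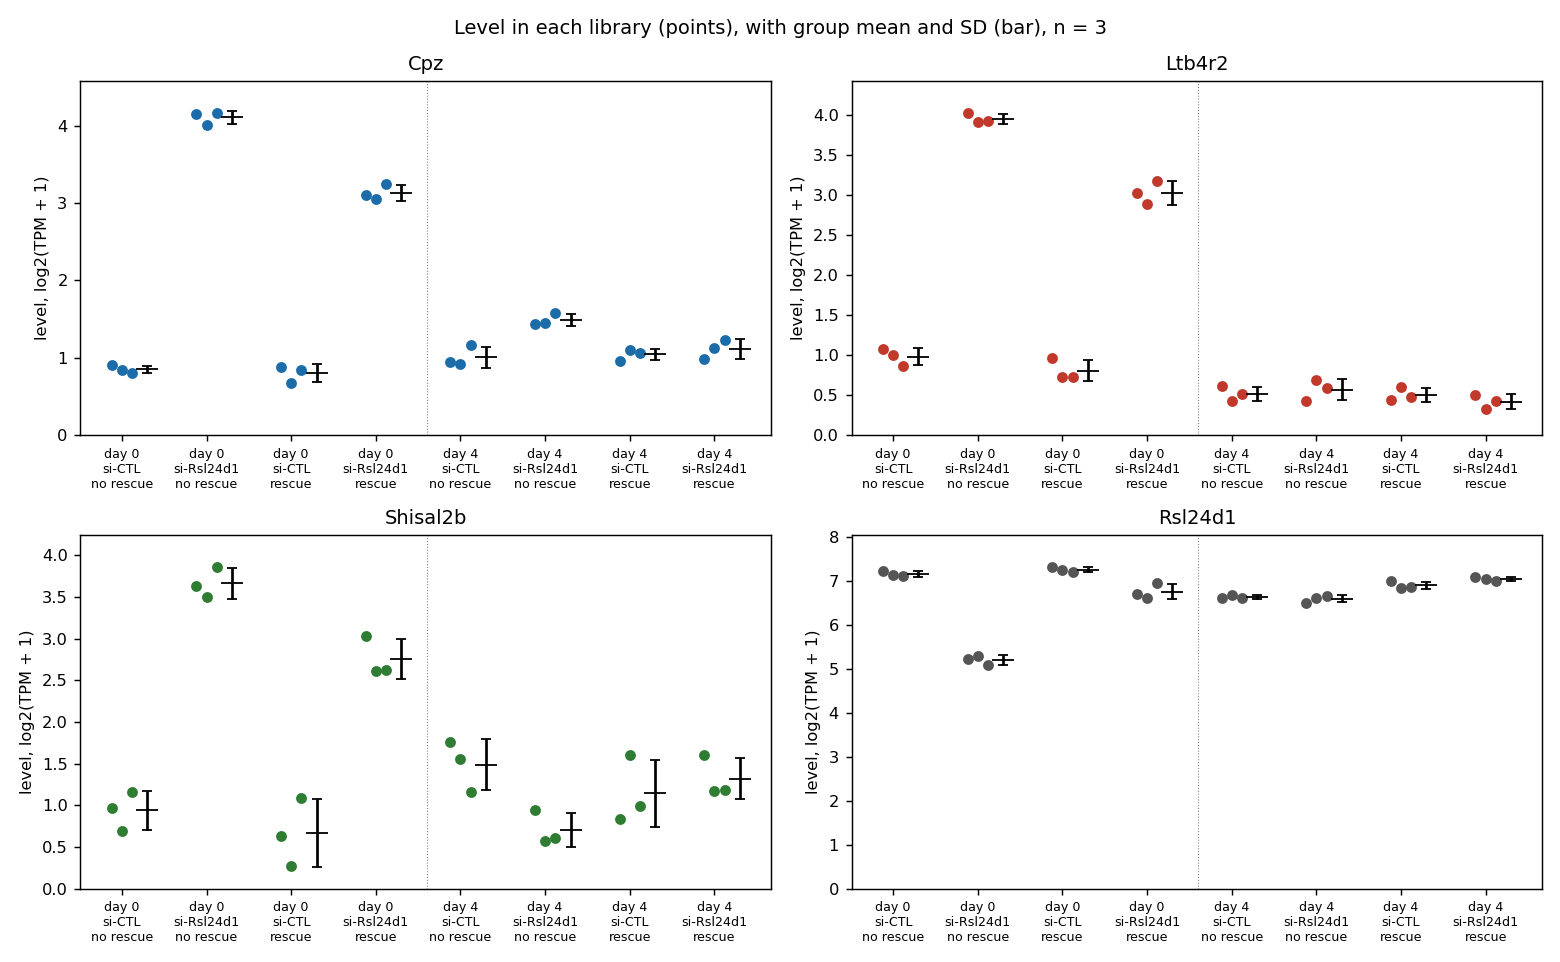
Level of Cpz, Ltb4r2, Shisal2b and the targeted gene Rsl24d1 on the log2(TPM + 1) scale (vertical axis, from 0) in the 8 groups (horizontal axis). Points are single libraries, and bars are the group mean and SD of 3 libraries. The 2 si-Rsl24d1 groups at day 0 stand above all others for the 3 members, with means of 4.11 and 3.14 for Cpz, while no member is above 1.76 in any other library.

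The same siRNA comparison in cells with rescue shares no library with the one that chose the genes, and asks whether the rise was still there once the siRNA-resistant Rsl24d1 was expressed. It was, for all 3 genes. Cpz was at 0.847, 0.589 and 0.793 TPM in rescued si-CTL libraries and at 7.59, 7.30 and 8.52 TPM in rescued si-Rsl24d1 libraries. Its difference was 2.34 on the log2(TPM + 1) scale (SE 0.09, limma adjusted p = 2.8e-13). Ltb4r2 was at 0.942, 0.660 and 0.651 TPM against 7.17, 6.39 and 8.08 TPM. The Ltb4r2 difference was 2.23 (SE 0.09, limma adjusted p = 1.1e-12). Shisal2b was at 0.554, 0.210 and 1.12 TPM against 7.19, 5.11 and 5.18 TPM. The Shisal2b difference was 2.09 (SE 0.22, limma adjusted p = 7e-07), and its control libraries were the most scattered of the 3 genes. All 3 members were called, beside 1.36% of all tested genes in either direction and 1.17% called higher, and their groups did not overlap, as was so, higher, for 18.0% of tested genes. Rsl24d1 was still 0.50 lower in the same rescued cells, and its part in these differences was not tested.

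Rescue brought the 3 genes down by about the same step. In si-Rsl24d1 cells at day 0, the mean with rescue was 48.0% of that without rescue for Cpz, 49.6% for Ltb4r2 and 49.6% for Shisal2b, in TPM. Every rescued library was below every unrescued one and above every si-CTL library. Rescued depleted cells still held 9.73 times the Cpz level of unrescued si-CTL cells, 7.37 times the Ltb4r2 level and 6.24 times the Shisal2b level, as ratios of mean TPM. These comparisons share libraries with the one that chose the genes and are given as values only. In the controls, rescue left Cpz at 92.6%, Ltb4r2 at 76.8% and Shisal2b at 67.3% of the unrescued mean TPM, all with overlapping libraries.

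On the log2(TPM + 1) scale, the difference with rescue was 71.7% of that without rescue for Cpz. It was 74.9% for Ltb4r2 and 76.8% for Shisal2b. Taking the 3 rescued si-Rsl24d1 libraries one by one, the share was 70.7, 69.2 and 75.3% for Cpz (SD 3.16, n = 3). It was 74.9, 70.0 and 79.9% for Ltb4r2 (SD 4.97, n = 3), and 86.9, 71.4 and 72.0% for Shisal2b (SD 8.79, n = 3). The 3 genes overlapped in this share. Across the 560 genes called higher at day 0 without rescue, the median share was 63.5%, with quartiles of 55.7 and 69.1%, so that each member lay above the upper quartile. So did 4 of the 5 genes ranked beside them, Rtkn at 73.1%, Neurod1 at 78.2%, Nkx2-9 at 75.2% and Gm29797 at 69.4%, while Ms4a10 was at 68.4%. A share formed on a gene chosen for a large denominator is a description, and was not tested against the other genes.

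**Figure D2:**
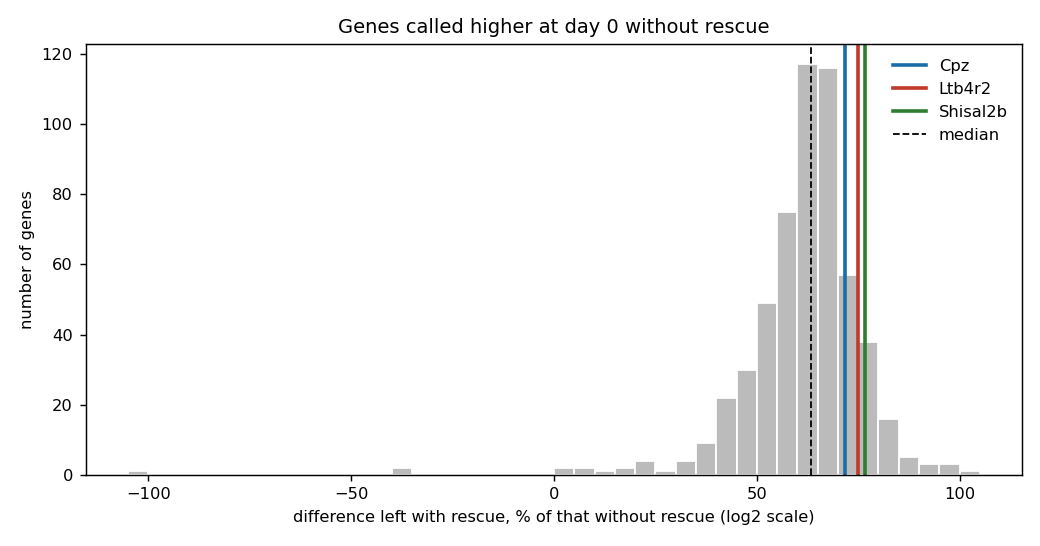
Histogram of the siRNA difference left with rescue, as a percentage of the difference without rescue on the log2(TPM + 1) scale (horizontal axis), for the 560 genes called higher at day 0 without rescue (vertical axis, number of genes). Coloured lines mark Cpz at 71.7%, Ltb4r2 at 74.9% and Shisal2b at 76.8%, and the dashed line marks the median of 63.5%.

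At day 4 without rescue, the 3 siRNA differences were unlike in size and direction, but none was called. The genes were not tested against each other. Without rescue, Cpz was at 0.917, 0.881 and 1.23 TPM in si-CTL libraries and at 1.71, 1.74 and 1.97 TPM in si-Rsl24d1 libraries. The groups did not overlap, and the difference was 0.49 on the log2(TPM + 1) scale (SE 0.09, limma adjusted p = 0.00021). That is under 1.8-fold on this scale, so Cpz was not called, and all tested genes had a median difference of 0.13 in this comparison. With libraries rescaled by the median of ratios, where that median was -0.003, the Cpz difference was 0.39 (limma adjusted p = 0.00084). Ltb4r2 was at 0.525, 0.346 and 0.422 TPM against 0.341, 0.610 and 0.508 TPM. Its libraries overlapped, and the difference was 0.05 (95% confidence interval -0.14 to 0.25, limma adjusted p = 0.67), or -0.002 by the median of ratios.

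Shisal2b at day 4 without rescue was at 2.38, 1.93 and 1.24 TPM in si-CTL libraries and at 0.922, 0.486 and 0.527 TPM in si-Rsl24d1 libraries. Here the depleted libraries were all below the controls, the opposite order to day 0. In TPM, the si-Rsl24d1 mean was 34.9% of the si-CTL mean. The difference was -0.78 on the log2(TPM + 1) scale (SE 0.22, limma adjusted p = 0.0076) and just under 1.8-fold on that scale, so it was not called. It was -0.86 (limma adjusted p = 0.0063) by the median of ratios, -0.95 (limma adjusted p = 0.0045) without si-CTL library 3 and -0.90 (limma adjusted p = 0.0050) without si-Rsl24d1 library 1, and would be called in each. In the fits that left out 1 of the other 4 libraries the adjusted p lay between 0.026 and 0.044. Groups did not overlap in either direction for 48.4% of tested genes, and 1.63% were called.

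In the same comparison at day 4 without rescue, the mean level of 8 fixed fibroblast markers was between 2.87 and 2.91 in si-CTL libraries and between 3.53 and 3.71 in si-Rsl24d1 libraries, on the log2(TPM + 1) scale. That of 8 primitive endoderm markers was between 1.63 and 1.81 against between 2.21 and 2.51. All 16 of these markers were above 0.1 TPM in at least 1 library of each of these groups. The level of 8 neural progenitor markers was between 2.06 and 2.10 against between 2.23 and 2.45, with Neurog2 under 0.1 TPM throughout. Without rescue, these levels thus moved with Cpz and against Shisal2b. With rescue, the fibroblast level was between 2.98 and 3.17 in si-CTL and between 3.32 and 3.40 in si-Rsl24d1 libraries. That of primitive endoderm was between 1.79 and 1.92 against between 2.11 and 2.23, while neural progenitor levels overlapped. There Cpz differed by 0.07 and Shisal2b by 0.18. The part of these levels in the results was not tested.

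With rescue at day 4, no member was called, beside 0.730% of tested genes. Cpz was at 0.948, 1.15 and 1.09 TPM in si-CTL libraries against 0.968, 1.19 and 1.35 TPM in si-Rsl24d1 libraries, a difference of 0.07 on the log2(TPM + 1) scale (95% confidence interval -0.11 to 0.25). Ltb4r2 was at 0.349, 0.515 and 0.395 TPM against 0.417, 0.248 and 0.343 TPM, a difference of -0.09 (-0.28 to 0.11). Shisal2b was at 0.782, 2.04 and 0.996 TPM against 2.04, 1.25 and 1.28 TPM, a difference of 0.18 (-0.29 to 0.64). The limma adjusted p was 0.66, 0.61 and 0.68. These intervals, with the wider one of Shisal2b, leave out a difference of 0.85 on the log2(TPM + 1) scale, the 1.8-fold of the call. That scale understates changes of low genes, so a 1.8-fold change in TPM is not left out for Ltb4r2 or Shisal2b.

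Cells with and without rescue were also compared at day 4. In si-CTL cells, the difference between cells with and without rescue was 0.04 for Cpz, -0.01 for Ltb4r2 and -0.35 for Shisal2b on the log2(TPM + 1) scale (limma adjusted p = 0.78, 0.95 and 0.26). In si-Rsl24d1 cells, Cpz was 0.38 lower with rescue (difference -0.38, SE 0.09, limma adjusted p = 0.0073), again under 1.8-fold. Ltb4r2 differed by -0.15 (limma adjusted p = 0.34) and Shisal2b by 0.61 (limma adjusted p = 0.085) in those cells. There Shisal2b was at 1.25 to 2.04 TPM with rescue against 0.486 to 0.922 TPM without. Cpz was at 0.968 to 1.35 TPM with rescue against 1.71 to 1.97 TPM without. No member was called, beside 0.0547% of tested genes in si-CTL cells and 0.0851% in si-Rsl24d1 cells. The siRNA difference at day 4 was itself compared between cells with and without rescue. This interaction was -0.41 for Cpz (limma adjusted p = 0.018), -0.14 for Ltb4r2 (limma adjusted p = 0.45) and 0.96 for Shisal2b (limma adjusted p = 0.03), none of which was called, beside 0.511% of tested genes. All tested genes had a median interaction of -0.17, and by the median of ratios the 3 values were -0.30, -0.07 and 1.06.

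Between day 0 and day 4, the genes fell in si-Rsl24d1 cells with rescue and were not called in si-CTL cells with rescue. Among rescued si-Rsl24d1 cells, the day 4 mean was 15.0% of the day 0 mean for Cpz, 4.66% for Ltb4r2 and 26.1% for Shisal2b, in TPM. On the log2(TPM + 1) scale, Cpz fell by 2.02 (SE 0.09, limma adjusted p = 8.3e-14), Ltb4r2 fell by 2.62 (SE 0.09, limma adjusted p = 6.5e-15) and Shisal2b fell by 1.44 (SE 0.22, limma adjusted p = 1e-05). All 3 were called, where 14.9% of tested genes were called and 5.57% were called lower. The corresponding differences in rescued si-CTL cells were 0.24 for Cpz (limma adjusted p = 0.017), -0.30 for Ltb4r2 (limma adjusted p = 0.0079) and 0.48 for Shisal2b (limma adjusted p = 0.062). The 3 control values ran in different directions, in a comparison where 15.6% of tested genes were called and the median of all tested genes was 0.12. By the median of ratios they were 0.17, -0.36 and 0.41.

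The change of the siRNA difference from day 0 to day 4 in rescued cells was tested as an interaction. It was -2.27 for Cpz (SE 0.12, limma adjusted p = 1.7e-10), -2.32 for Ltb4r2 (SE 0.13, limma adjusted p = 3.5e-10) and -1.92 for Shisal2b (SE 0.31, limma adjusted p = 0.00021). All 3 were called, beside 2.10% of tested genes in either direction and 1.48% called lower. The siRNA difference in Rsl24d1 itself went from -0.50 to 0.15 between the same days, and its part in this result was not tested. The unrescued cells at day 0 chose the genes, so the corresponding change without rescue was not tested. There the day 4 mean was 11.1% of the day 0 mean for Cpz, 3.35% for Ltb4r2 and 5.49% for Shisal2b in si-Rsl24d1 cells, in TPM.

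**Figure D3:**
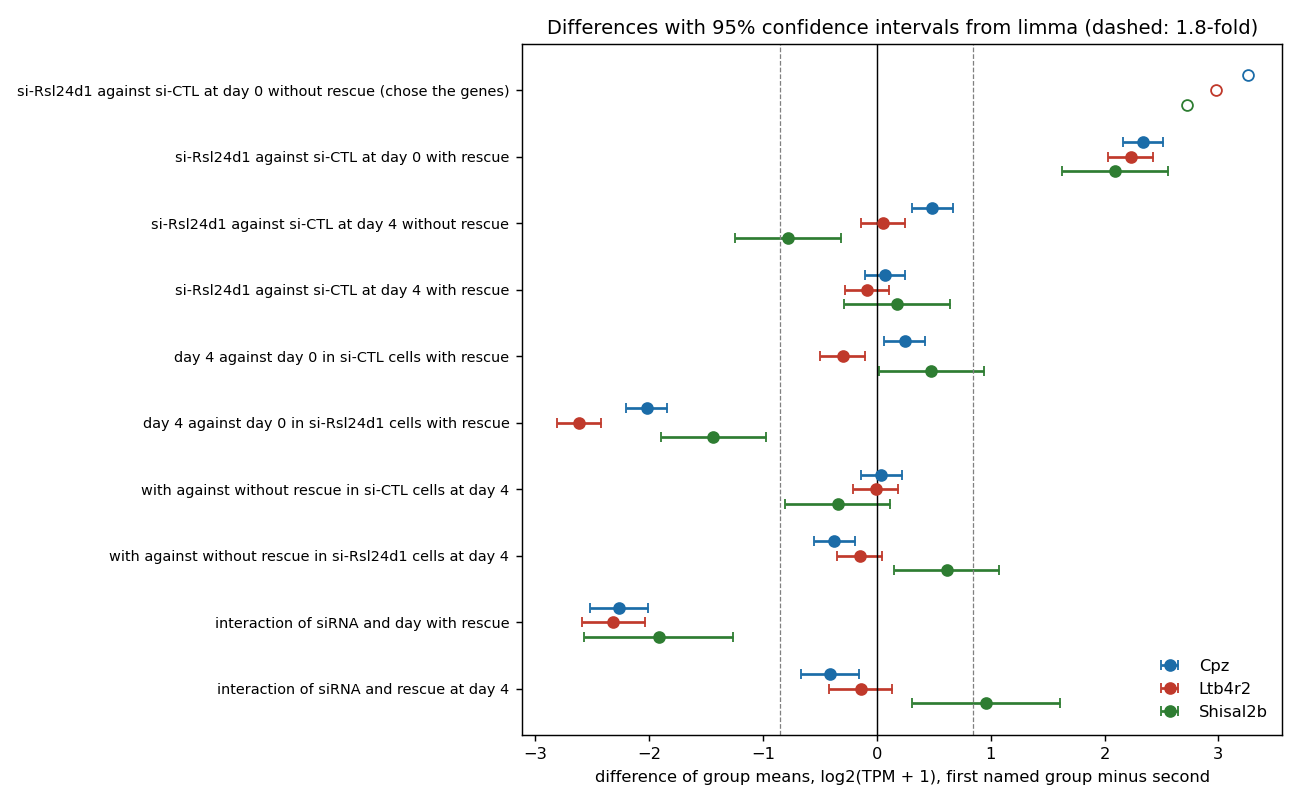
Differences of group means on the log2(TPM + 1) scale (horizontal axis) in each comparison (vertical axis) for the 3 genes, with 95% confidence intervals from limma, and dashed lines at 1.8-fold. The open points in the top line are the comparison that chose the genes and carry no interval. The points stand at 2.09 to 2.34 at day 0 with rescue and at -0.78 to 0.49 in the siRNA comparisons at day 4.

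Ordered by level over the 8 groups, the 3 genes shared their top places and differed below them. Unrescued and then rescued si-Rsl24d1 cells at day 0 came first for each gene, and these groups overlapped neither with each other nor with any other group. For Cpz, unrescued si-Rsl24d1 cells at day 4 followed at a mean of 1.49 ± 0.07 on the log2(TPM + 1) scale (SD, n = 3), apart from the next group. The remaining 5 Cpz means lay between 0.80 and 1.11, where neighbouring groups overlapped but for a gap between the day 4 and the day 0 controls. For Ltb4r2, the day 0 controls followed at 0.98 ± 0.11 and 0.80 ± 0.13 (SD, n = 3), apart from the 4 day 4 groups, whose means of 0.42 to 0.57 overlapped. Shisal2b means in the other 6 groups ran from 0.67 to 1.49, and each overlapped with the next. Outside the 2 top groups, the 18 other libraries averaged 1.05 for Cpz, 0.63 for Ltb4r2 and 1.05 for Shisal2b. Each gene thus passed the filter on low values, a mean of at least 0.5, without the 2 groups in which it was high. Their means over all 24 libraries were low for tested genes, above those of 21.2 to 26.7% of them.

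The genes whose pattern was most like that of each member were found by Pearson's r on the log2(TPM + 1) scale over the 24 libraries, among 13569 tested protein-coding genes. The libraries of 8 groups are not independent points, the chosen rise at day 0 is part of every r, and no p is given. For Cpz these were Mdm2 (r = 0.989), Zfp750 (0.986), Ctxn1 (0.985), Lrrc28 (0.984) and Scn3b (0.983). Mdm2, the ubiquitin ligase that keeps p53 low and is itself a p53 target, averaged 102.3 TPM in si-CTL and 519.6 TPM in si-Rsl24d1 cells at day 0 without rescue. For Ltb4r2 they were Akr1b10 (r = 0.996), Perp (0.994), Ptp4a3 (0.993), Ltb4r1 (0.993) and Trp53i11 (0.992). Perp encodes a membrane protein of desmosomes known as a p53 target. For Shisal2b they were Ephx1 (r = 0.966), 1700007K13Rik (0.959), Gm29797 (0.956), Ttll6 (0.955) and Matn1 (0.951). Outside depleted day 0 cells, Matn1 group means lay between 0.272 and 0.556 on the log2(TPM + 1) scale and averaged under the filter of 0.5. Matn1 was thus tested only through the groups in which it was high. Ephx1 encodes the microsomal epoxide hydrolase. Among themselves, Cpz and Ltb4r2 had r = 0.961, Cpz and Shisal2b 0.919, and Ltb4r2 and Shisal2b 0.909.

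Genes near each member were examined, within 100 kb of its annotated body. Around Ltb4r2, 12 of 16 annotated neighbours were tested and 1, Ltb4r1, was called higher at day 0, with and without rescue. Over all tested genes, 3.40% were called higher without rescue and 1.17% with rescue. Ltb4r1 encodes the high-affinity leukotriene B4 receptor, and starts 823 bases beyond the end of Ltb4r2 on the same strand. Ltb4r1 was at 0.806, 0.343 and 0.587 TPM in unrescued si-CTL libraries and at 6.34, 5.98 and 6.55 TPM in unrescued si-Rsl24d1 libraries. The difference was 2.22 on the log2(TPM + 1) scale (SE 0.10) without rescue and 1.52 (SE 0.10) with rescue. Ltb4r1 averaged 0.358 over the 18 libraries outside depleted day 0 cells, under the filter of 0.5. It was thus tested only through the groups in which it was high, so no p is given and its call is a description. At day 4 the Ltb4r1 differences were 0.13 and 0.03 (limma adjusted p = 0.32 and 0.88). The group order of Ltb4r1 at day 0 was that of Ltb4r2, at lower TPM. Cideb, an activator of lipid droplet fusion, lies 2969 bases on the other side on the opposite strand and had differences of 0.15 and -0.06 without and with rescue (limma adjusted p = 0.36 and 0.80). In RefSeq the Ltb4r2 gene is longer and overlaps Cideb by 503 bases. In gencode the genes do not overlap. The study's methods name a stranded kit and the labels a poly-A kit, and whether quantification used strand is not given in the sources used here.

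The other nearest tested neighbours of Ltb4r2 were not called. Nop9, a nucleolar protein gene, differed by -0.19 without rescue, Dhrs1 by -0.43 and Ripk3, a kinase of necroptosis, by -0.30 on the log2(TPM + 1) scale, while Adcy4 was too low to be tested. Nfatc4, a transcription factor gene 58005 bases away, had the largest other difference of the 12, -0.79 (limma adjusted p = 4.5e-07), which is under 1.8-fold. It was named after its value was seen. Around Cpz, 2 of 5 neighbours were tested, Trmt44 at -0.11 and Acox3 at 0.40, and neither was called. Around Shisal2b, 2 of 4 were tested, Srek1ip1 at 0.30 and Cwc27 at -0.10, and neither was called.

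**Figure D4:**
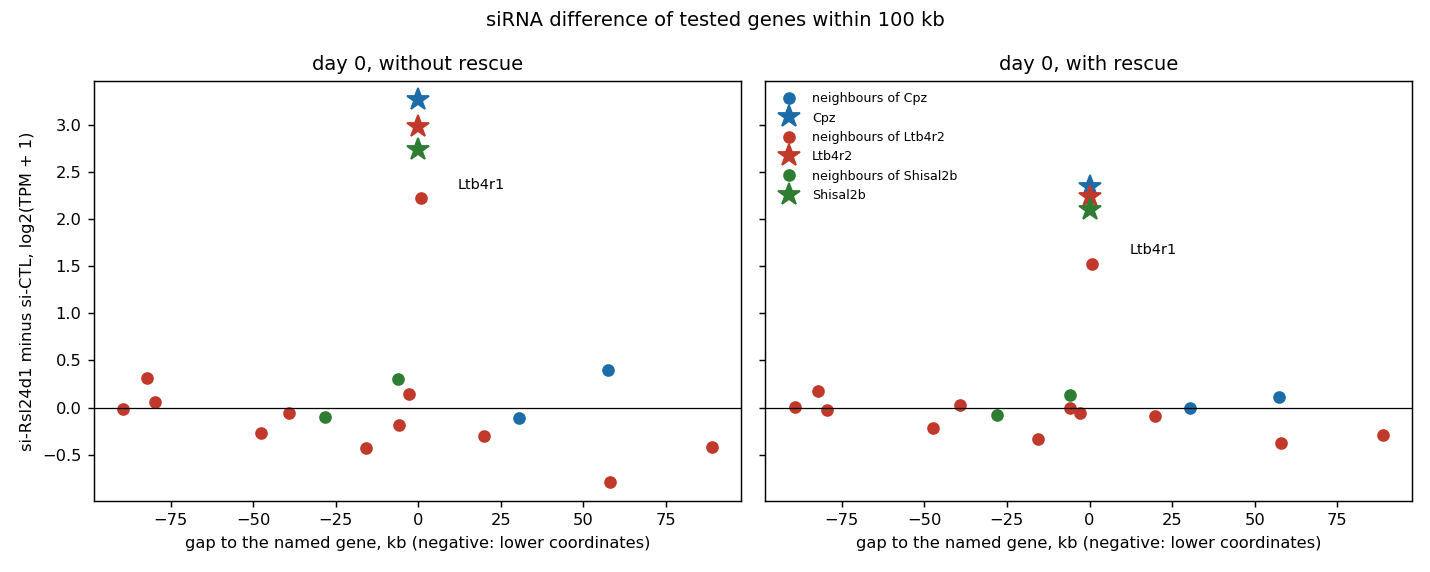
siRNA difference at day 0 on the log2(TPM + 1) scale (vertical axis) of tested genes within 100 kb of a member, by the gap between gene bodies in kb (horizontal axis, negative toward lower coordinates), without rescue (left) and with rescue (right). Stars are the members and circles their neighbours. Of the 16 neighbours, Ltb4r1 at 2.22 and 1.52 lies below the stars and above the rest, which lie between -0.79 and 0.40.

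Beside Ltb4r2, 28 other genes of leukotriene and hydroxy fatty acid synthesis, receptors and breakdown were listed, and 17 were tested. At day 0 without rescue 2 were called higher and none lower, where 3.40% of all tested genes were called higher, and the median difference was -0.004, beside -0.01 over all tested genes. These 2 were Ltb4r1 and Alox5. Alox5 encodes the lipoxygenase that starts leukotriene synthesis. Alox5 was at 0.621, 0.835 and 0.680 TPM in si-CTL libraries and at 5.96, 5.68 and 6.39 TPM in si-Rsl24d1 libraries. Its difference was 2.03 (SE 0.09) without rescue and 1.28 (SE 0.09) with rescue. Alox5 averaged 0.496 on the log2(TPM + 1) scale over the 18 libraries outside depleted day 0 cells, so that, like Ltb4r1, it passed the filter only through the groups in which it was high. For this reason no p is given, and the count of 2 is a description. The same 2 genes were called with rescue.

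Other genes on the route to leukotriene B4 were not called at day 0. Alox5ap, whose product hands arachidonic acid to the lipoxygenase, differed by -0.32 without rescue on the log2(TPM + 1) scale (limma adjusted p = 0.27). Lta4h, which makes leukotriene B4 from its precursor, differed by -0.16 (limma adjusted p = 0.0056), under 1.8-fold. Pla2g4a, which frees arachidonic acid from membranes, differed by 0.68 (limma adjusted p = 1.5e-07), also under 1.8-fold. At day 4 without rescue, Ptgs2, the inducible cyclooxygenase, was called higher with a difference of 1.04 (SE 0.09, limma adjusted p = 3.6e-08), and Alox5 differed by 0.12 (limma adjusted p = 0.30). In that comparison 1.63% of all tested genes were called in either direction. The median difference of the 17 was 0.13, beside 0.13 over all tested genes. No gene of the list was called at day 4 with rescue.

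**Figure D5:**
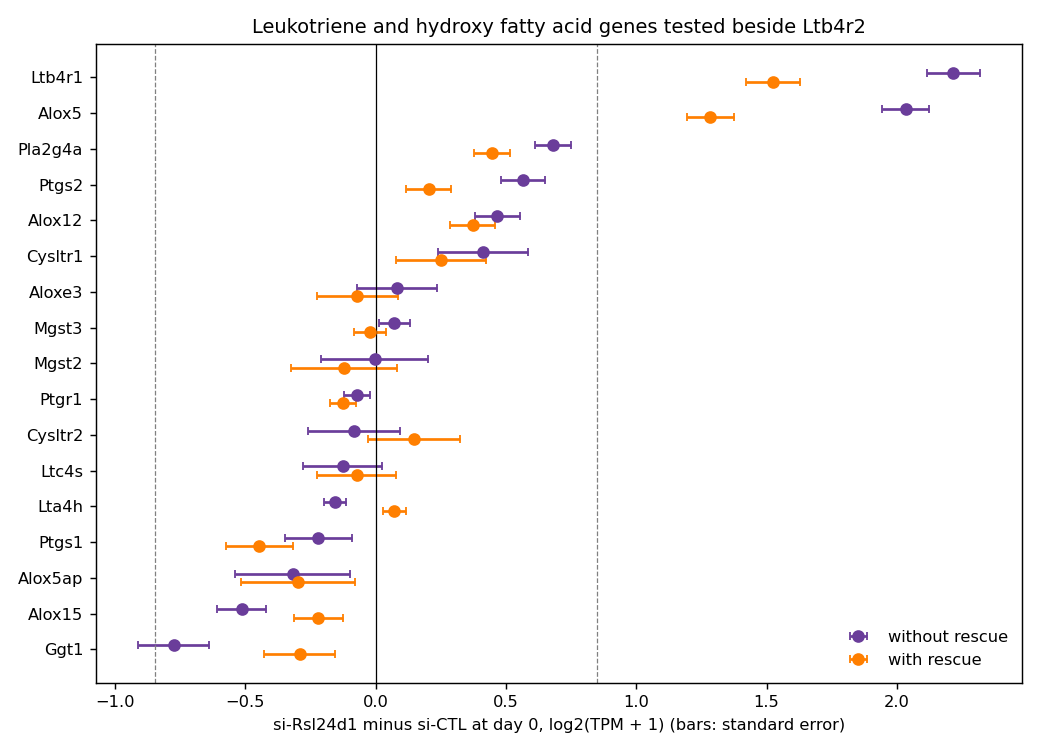
siRNA difference at day 0 on the log2(TPM + 1) scale (horizontal axis) for the 17 tested genes listed beside Ltb4r2 (vertical axis), without and with rescue, with standard errors and dashed lines at 1.8-fold. Ltb4r1 (2.22 and 1.52) and Alox5 (2.03 and 1.28) lie beyond the dashed line in both, and the other 15 do not.

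RNA of leukocytes, in which leukotriene genes are known to be high, was looked for in the same libraries. The mean log2(TPM + 1) of 8 leukocyte markers lay between 1.31 and 1.33 in unrescued si-CTL cells at day 0 and between 1.29 and 1.32 in unrescued si-Rsl24d1 cells. It lay between 1.26 and 1.28 and between 1.23 and 1.32 in the corresponding rescued cells. Ptprc, the pan-leukocyte phosphatase, and Lyz2, a lysozyme of myeloid cells, were under 0.1 TPM in all 12 day 0 libraries. The summed level of the 8 markers was higher in depleted cells, between 34.6 and 36.8 TPM in si-CTL and between 40.3 and 42.2 TPM in si-Rsl24d1 cells without rescue. With rescue it was between 31.2 and 33.3 TPM against between 34.8 and 38.2 TPM. Of the 5 markers tested, none was called at day 0. Their part in the rise of Ltb4r2 was not tested. The ESC marker level was between 7.67 and 7.80 in unrescued si-CTL cells and between 7.27 and 7.34 in unrescued si-Rsl24d1 cells. Of its 10 markers, 2 were called lower there, Zfp42 and Esrrb. Over all tested genes, 4.18% were called in either direction and 3.40% higher. With rescue the ESC marker level was between 7.48 and 7.59 against between 7.33 and 7.45. Without rescue, the fibroblast marker level was between 1.76 and 1.84 in si-CTL cells and between 1.53 and 1.57 in si-Rsl24d1 cells, and that of primitive endoderm between 1.13 and 1.22 against between 1.24 and 1.36, with no marker of either list called. Without rescue, the ESC and fibroblast levels were thus lower, and that of primitive endoderm higher, in the cells in which the 3 genes were higher. With rescue, the fibroblast and primitive endoderm levels overlapped between si-CTL and si-Rsl24d1 libraries. The part of these levels in the rise of the 3 genes was not tested.

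Of 21 other carboxypeptidase genes listed beside Cpz, 11 were tested. Cpd, a membrane-bound carboxypeptidase of the secretory pathway, was the 1 gene of the list called at day 0 without rescue, and it was higher, where 3.40% of all tested genes were called higher. Cpd was at 9.10, 7.01 and 6.46 TPM against 15.6, 14.6 and 13.3 TPM, a difference of 0.87 (SE 0.15, limma adjusted p = 7.5e-05), and of 0.49 with rescue (limma adjusted p = 0.022), which was not called. The median difference of the 11 was 0.25 without rescue and 0.11 with rescue. At day 4 without rescue, Cpe, which trims prohormones, was called higher with a difference of 0.98 (SE 0.06, limma adjusted p = 3.1e-10). In that comparison 1.63% of all tested genes were called in either direction, and the median difference of the 11 was 0.01.

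Of 22 other genes with a Frizzled-type cysteine-rich domain, 18 were tested and 2 were called at day 0 without rescue, where 4.18% of all tested genes were called. Fzd10, a Wnt receptor, was called higher at day 0 without rescue, from 6.36, 6.50 and 6.27 TPM to 16.2, 15.9 and 16.1 TPM, a difference of 1.21 (SE 0.08, limma adjusted p = 1.9e-10). Sfrp1, a secreted Wnt antagonist, was called lower, from 12.8, 11.4 and 11.5 TPM to 4.58, 4.30 and 4.10 TPM, a difference of -1.27 (SE 0.10, limma adjusted p = 2.2e-09). With rescue, Fzd10 differed by 0.80 (limma adjusted p = 2.2e-07) and Sfrp1 by -0.70 (limma adjusted p = 2.1e-05), both under 1.8-fold. The median difference of the 18 was -0.14 without rescue and -0.01 with rescue.

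Of 10 other Shisa family genes, 9 were tested and 2 were called higher at day 0 without rescue, beside 3.40% of all tested genes. Shisa4 went from 3.74, 3.64 and 2.63 TPM to 11.6, 10.3 and 10.9 TPM, a difference of 1.47 (SE 0.10, limma adjusted p = 2.3e-10). Shisal1, like Shisal2b a Shisa-like gene, went from 0.638, 0.424 and 0.391 TPM to 3.13, 2.66 and 3.21 TPM, a difference of 1.43 (SE 0.11, limma adjusted p = 1.4e-09). With rescue their differences of 0.84 and 0.83 (limma adjusted p = 2e-06 and 8.1e-06) fell just under 1.8-fold on the log2(TPM + 1) scale, so that neither was called. At day 4 no Shisa gene of the list was called, with or without rescue. The median difference of the 9 was 0.28 at day 0 without rescue and 0.10 with rescue.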

How the data were processed

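RNA-seq was measured in 24 mouse CGR8 libraries, 8 groups of 3. The deposited table holds 1 value for each of 54242 gene symbols per library, as log2(TPM + 1), a unit read from the deposited values, since each library's TPM then sum to 1000000. The authors' methods describe Salmon quantification summed per gene. The submitters' processing notes name STAR 2.7.8a, Salmon 1.4.0 and build GRCh38, a human build, although the samples are mouse. Labels and methods also differ on the library kit (poly-A or total RNA), and the labels give both 72 and 48 h for collection at day 0. TPM keep no depth, so depth is unknown here, no counting interval is given, and TPM are relative within a library.

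The deposited log2 values were tested as they are with limma 3.58.1 in R 4.3.3, on 8 group means with an intensity trend. The 16447 genes with a mean of at least 0.5 were tested, and p-values were adjusted by Benjamini-Hochberg over them. A gene was called at an adjusted p below 0.01 and over 1.8-fold on this scale (0.848 in log2). Fold changes on this scale understate those of low genes. The fit was tested on simulated data.

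The members, gene lists and markers were chosen with earlier results of these data known. Named genes beyond the members are the targeted gene, those ranked next to a member, up to 3 called genes per list and direction at day 0, the nearest 3 neighbours on each side, and the 5 genes with the highest r per member. Genes called on the lists at day 4, and those said to be, were named after their values were seen. Alternatives were 0.1 or 2 added in place of 1, no filter, the compared groups alone, a replicate block, median of ratios scaling and leaving out each library.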

Additional observations from a re-analysis of the deposited data

Results flagged for a closer look

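The siRNA difference of all 3 genes depended on the day in cells with rescue, by a test of that difference itself. From day 0 to day 4 it changed by -2.27 for Cpz, -2.32 for Ltb4r2 and -1.92 for Shisal2b on the log2(TPM + 1) scale (limma adjusted p = 1.7e-10, 3.5e-10 and 0.00021). In the same rescued cells, Rsl24d1 itself differed by -0.50 at day 0 (limma adjusted p = 2.2e-05). At day 4 its difference was 0.15 (limma adjusted p = 0.19), so no knockdown was detected there. The part of Rsl24d1 in this result was not tested.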

How the results depend on the processing

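Over 33 results, 420 of 441 values under the alternatives kept their direction and their side of the threshold, or moved by less than the spread between libraries. The siRNA differences at day 0 with rescue, the falls by day 4 in rescued si-Rsl24d1 cells and the interactions of siRNA and day were called under every alternative run. With 0.1 added to the TPM in place of 1, the day 0 difference without rescue was 4.18 for Cpz, 3.77 for Ltb4r2 and 3.55 for Shisal2b, and with 2 added it was 2.70, 2.47 and 2.23. The share left with rescue was 77.5% for Cpz, 82.6% for Ltb4r2 and 90.6% for Shisal2b with 0.1 added, and 68.0% for Cpz with 2 added. These shifts follow from the added value, which sets how far low TPM count.

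At day 4 without rescue, Shisal2b was called with 0.1 added (-1.39) and by the median of ratios (-0.86), and ranged from -0.95 to -0.65 when each library was left out. Ltb4r2 there was -0.0022 by the median of ratios and ranged from -0.0067 (without si-Rsl24d1 library 2) to 0.13. In si-CTL cells at day 4, the rescue difference was -0.028 for Cpz by the median of ratios, with a range of -0.0071 (without unrescued library 2) to 0.12 over left-out libraries. For Ltb4r2 that range was -0.059 to 0.036, above 0 without unrescued library 1 or rescued library 1 or 3. The causes were not tested.

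The share of genes called moved by over 1.5 times in places. At day 0 it was 7.44% without and 2.80% with rescue when 0.1 was added, and 1.94% and 0.632% with no filter. For the siRNA at day 4 without rescue it was 3.65% with 0.1 added, 0.961% with 2 added, 0.758% with no filter and 1.01% by the median of ratios. With rescue it was 0.474% with 2 added and 0.313% with no filter. Between days it was 23.6% with 0.1 added and 7.12% with no filter in si-CTL cells, and 6.90% with no filter in si-Rsl24d1 cells. For rescue at day 4 it was 0.207% with 0.1 added and 0.0056% with no filter in si-CTL cells, and 0.249% and 0.0363% in si-Rsl24d1 cells.

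Libraries with the same number did not deviate together on average (mean r = -0.017 over 84 pairs, beside 0.0087 over 168 pairs with other numbers). No pairing by number was thus seen over all groups, and pairing within a part of them was not examined. With the replicate block no call on the 3 genes changed, Shisal2b at day 4 without rescue kept -0.78 (limma adjusted p = 0.0097), and the share called at day 0 was 4.16%.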
